A study of Rattus norvegicus with 2 samples.

Results

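Integrins and laminins, the cell surface receptors and basement membrane proteins that anchor heart cells to their matrix, were examined in the myocardium of spontaneously hypertensive rats, an inbred strain with high blood pressure and an enlarged heart. Genes were taken by symbol: every protein-coding row that begins with Itga or Itgb, or with Lam followed by a, b or c and a digit. This gave 32 of the 13706 protein-coding genes listed, all with reads in both libraries: 20 integrin chains, 4 genes that carry an integrin name without encoding a chain, and 8 laminin chains. The KXH group received the Jiangya Kangxian formula, a herbal preparation, at its high dose of 9.6 g/kg into the stomach for 12 weeks, and the water group received distilled water in the same way for 12 weeks. Both groups were spontaneously hypertensive rats, so neither library shows a heart with normal blood pressure. Each group was 1 library of total RNA, and the labels give neither the age of the rats nor whether an animal or a pool was used.

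An integrin is a pair of an alpha and a beta chain that spans the cell membrane, binds matrix or another cell outside, and is tied to actin inside through talin, kindlin and the integrin-linked kinase complex. The beta chain of Itgb1 pairs with many alpha chains, whereas that of Itgb2 is made by leukocytes and pairs with Itgal, Itgam, Itgax and Itgad. A laminin is a cross-shaped protein of 1 alpha, 1 beta and 1 gamma chain, and it is the main integrin and dystroglycan ligand in the basement membrane that surrounds each cardiomyocyte and each capillary. In heart muscle the pair of Itga7 and Itgb1 is the main laminin-binding integrin, and dystroglycan (Dag1) is another laminin receptor.

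With 1 library per group there is no replicate check, no test between the treatments was made, and "higher" and "lower" describe these libraries. Levels are the deposited RPKM, that is reads per kilobase of listed length per 1000000 reads of the table. Each ratio is KXH over water, with a 95% exact Clopper-Pearson interval for counting error that leaves out the variation between animals. The KXH library had 14.1 M and the water library 15.1 M protein-coding reads (M, 1000000), of which the 32 genes held 0.520% and 0.535%. The tissue label fits the cardiomyocyte markers: all 8 (Myh6, Myh7, Tnnt2, Tnni3, Actc1, Ryr2, Pln and Myl2) were abundant, the lowest being Ryr2 at 598 RPKM with KXH and 607 with water. No row was found for Itgax, Itga2, Itga2b, Itga3, Itga9, Itgav, Lama2, Lama3, Lamb1 or Lamb4. Taking an absent row as 0 reads would put Itgax at 0 in both libraries, and the other 9 were not analysed here. Other matrix genes, such as Nid1, Col4a2 and Hspg2, also had no row, so an absent row was not read as a measured absence.

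Upstream sequence was available for 23 of the 32 genes in RefSeq's GRCr8 promoter table. The windows of 3 are shown because they belong to genes with different ranges of expression: the widely used Itgb1, the muscle gene Itgb1bp2 and the myeloid gene Itgam. Each run is the 250 bases before the annotated start, 5′ to 3′ on the strand of the gene, and capitals mark the dinucleotide CG. They lie at chr19:73602027-73602276, chrX:70612271-70612520 and chr1:192089342-192089591, all on the plus strand of GRCr8.
Itgb1: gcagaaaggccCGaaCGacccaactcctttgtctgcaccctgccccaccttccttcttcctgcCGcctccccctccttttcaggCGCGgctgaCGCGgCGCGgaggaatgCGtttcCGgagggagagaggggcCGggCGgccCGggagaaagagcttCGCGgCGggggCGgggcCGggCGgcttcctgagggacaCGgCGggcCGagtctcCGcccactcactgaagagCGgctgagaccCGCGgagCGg
Itgb1bp2: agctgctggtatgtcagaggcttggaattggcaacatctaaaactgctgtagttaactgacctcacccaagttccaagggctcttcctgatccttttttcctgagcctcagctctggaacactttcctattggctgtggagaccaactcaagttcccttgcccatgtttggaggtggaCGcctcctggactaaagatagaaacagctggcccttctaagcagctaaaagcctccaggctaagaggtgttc
Itgam: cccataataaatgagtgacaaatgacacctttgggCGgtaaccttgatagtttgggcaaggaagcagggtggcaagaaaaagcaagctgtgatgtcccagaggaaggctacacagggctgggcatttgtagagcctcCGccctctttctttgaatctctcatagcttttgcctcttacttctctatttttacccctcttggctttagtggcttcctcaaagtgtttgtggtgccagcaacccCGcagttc

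The Itgb1 window held 28 CG dinucleotides, the Itgb1bp2 window 1 and the Itgam window 3. Windows with no more CG than these made up 87.4%, 2.72% and 8.19% of the 8043 windows of genes that averaged 1 RPKM or more. The 7 genes above 30 RPKM held 1 to 33 CG and the 12 genes under 3 RPKM held 1 to 15, so the ranges overlapped. Letters GAGGAA, the core that the myeloid factor PU.1 binds, or their reverse complement were present in the windows of Itgam and Itgb1 and in 10 of the 23 in all, which is 43.5%, against 23.2% of all 27457 windows. Such a match describes the letters only.

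Levels spanned more than 3 orders of magnitude in both libraries. Laminin beta chain Lamb2 was the most abundant gene, at 252 RPKM with KXH and 268 with water, and integrin alpha chain Itga10 the least, at 0.0565 and 0.184. Of the 32 genes, 27 averaged 1 RPKM or more over both libraries and form the counts and medians. The other 5, Itga10, Itga11, Itgb6, Itgb3bp and Lama1, are described by their reads.

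**Figure D1:**
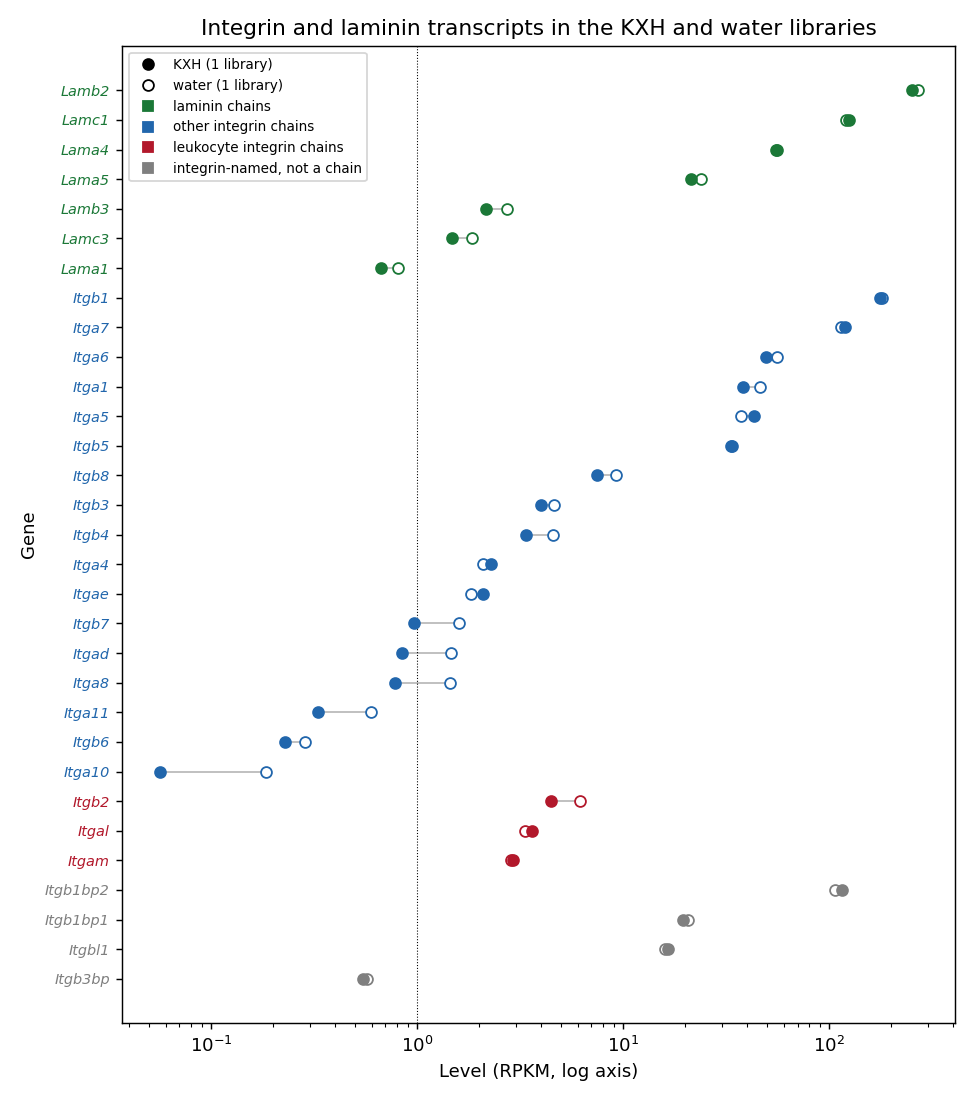
Level of each gene named in the text, in RPKM on a log axis, with a filled point for the KXH library and an open point for the water library, genes ordered by level within each class and 1 library per group. The points of the abundant genes nearly coincide, as for Itgb1 at 177 and 181 RPKM, and they lie farthest apart for Itga10, at 0.0565 and 0.184 RPKM.

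Most ratios were near 1, and all those beyond 1.2-fold were below it. Among the 27 genes, 9 were at least 1.2-fold lower in the KXH library, where 12.1% of all 10467 genes at this level were, and none was at least 1.2-fold higher, where 7.5% of all genes were. The 9 were Itga1, Itga8, Itgad, Itgb2, Itgb4, Itgb7, Itgb8, Lamb3 and Lamc3. Itga8, Itgad and Itgb7 reached a mean of 1 RPKM only through the water library, so their direction was set in part by that requirement. Among the 24 genes with at least 1 RPKM in both libraries, a limit added after the values were seen, 6 were at least 1.2-fold lower, against 11.3% of all genes, and none at least 1.2-fold higher, against 7.07%.

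The share differed with the level. Of the 11 genes averaging 1 to 5 RPKM, 6 were at least 1.2-fold lower, where 29.5% of all genes at that level were. Of the 16 averaging 5 RPKM or more, Itga1, Itgb2 and Itgb8 were (3 genes), where 6.69% of all genes were. Itgb2, at 4.46 RPKM with KXH and 6.17 with water, reached that average only through the water library. Its direction was thus set in part by that requirement. The counting interval lay below 1 for 10 of the 27 genes and above 1 for 4, against 16.3% and 11.2% of all genes. The genes with an interval above 1 were Itga5, Itga7, Itgb1bp2 and Lamc1. A ratio below 1 was found for 16 of the 27 genes, against 55.0% of all genes. The median log2 ratio of RPKM + 1 over the 27 genes was -0.07, beside -0.02 over all genes kept.

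**Figure D2:**
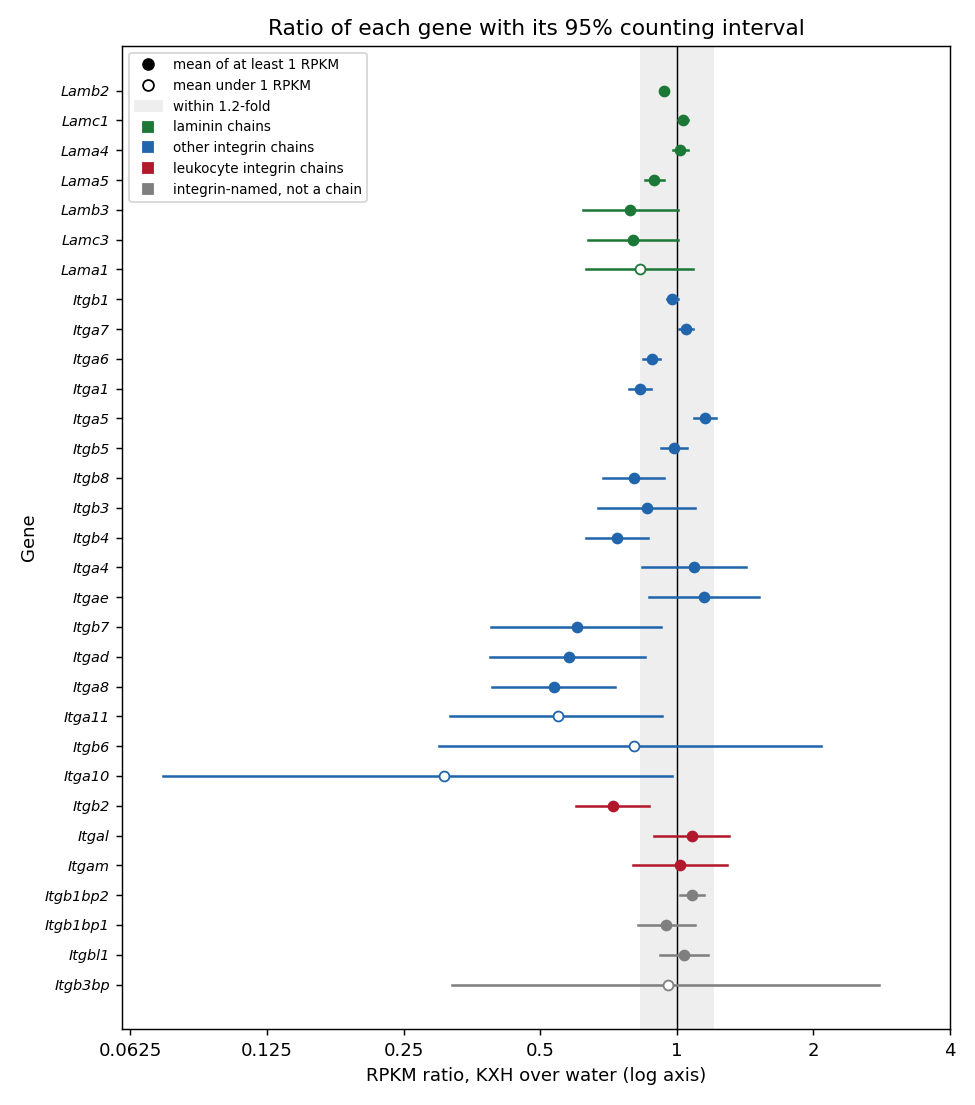
RPKM ratio of KXH over water for each gene named in the text, on a log axis, with its 95% counting interval; open points average under 1 RPKM and the grey band marks ratios within 1.2-fold. No point lies right of the band, the highest being Itga5 at 1.16, whereas 13 points lie at or beyond its lower edge.

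Among the laminins, the ligands, the abundant chains lay within 1.2-fold of the water level. Lamb2, a beta chain of the mature muscle basement membrane, had a ratio of 0.938 (0.921 to 0.957; 19734 reads with KXH and 22587 with water). Lamc1, the gamma chain shared by most laminins, was at 124 RPKM with KXH and 120 with water, a ratio of 1.03 (1.01 to 1.06). The most abundant beta and gamma chains listed thus lay on opposite sides of 1, with differences of a few percent. Lamb1 and Lama2 had no row, so their levels are not known here.

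Of the alpha chains, which give a laminin its receptor binding, Lama4 and Lama5 are those of blood vessel walls. Lama4 was at 55.9 RPKM with KXH and 54.9 with water, with an interval that includes 1 (0.979 to 1.06). Lama5 was at 21.2 against 23.7 RPKM, 1.12-fold lower (1.07 to 1.17; 3368 and 4048 reads). The gap between these alpha chains is beyond the counting error of each, since their intervals do not overlap.

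Less abundant beta and gamma chains followed. Lamb3, a chain of skin and other epithelia, was at 2.15 against 2.71 RPKM, a ratio of 0.791 (0.622 to 1.005). Lamc3, a further gamma chain, was at 1.48 against 1.84 RPKM, a ratio of 0.801 (0.636 to 1.01). Lamb3 and Lamc3 are past 1.2-fold, yet both intervals include 1, and a difference was not detectable with so few reads. The 7 laminin chains kept had a median log2 ratio of -0.09, 3 higher and 4 lower. The median turned to 0.027 where an average of 5 RPKM was required.

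Lama1, the alpha chain of early embryonic basement membranes, needs a separate account. It was listed with 99 reads with KXH and 128 with water, but the deposited coverage was 1.88% and 1.9% of its 10570 bases, or about 199 and 201 bases. The 33 genes of at least 5000 bases with read numbers within 1.25 times of its own, Lama1 among them, had a median coverage of 83.1% and 87.7%, and Lama1 was the lowest of them, the next being at 35.1% and 37.5%. The reads of Lama1 therefore came from a short stretch in both libraries, and its RPKM is not a level of the whole transcript. Lama1 averaged under 1 RPKM and enters no median.

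**Figure D3:**
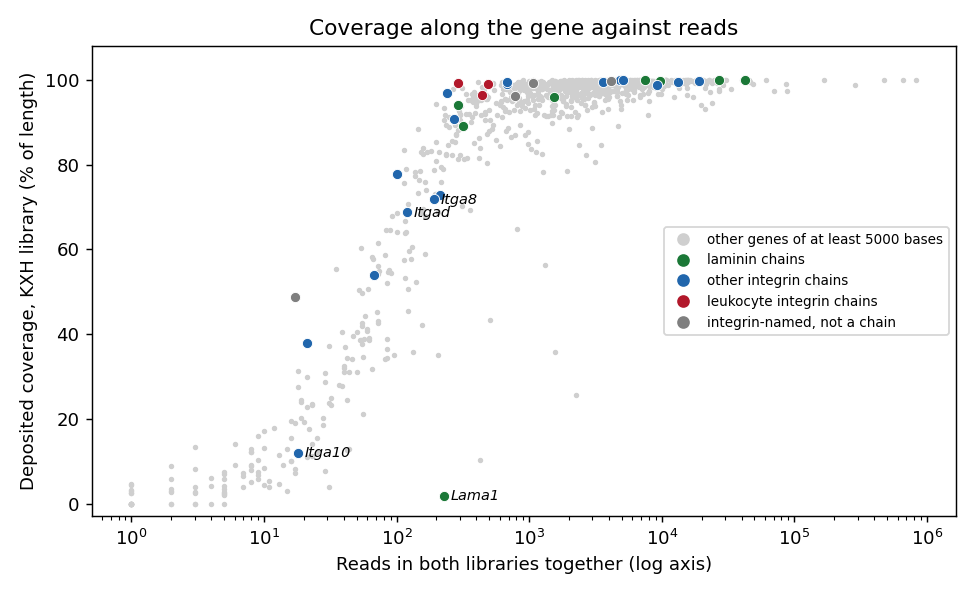
Deposited coverage of the listed length in the KXH library against the reads of both libraries together on a log axis, for the 32 genes and for other genes of at least 5000 bases. Coverage climbs with reads for most other genes, with some far below the rest, whereas Lama1 sits at 1.88% with 227 reads.

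Integrin beta 1 and its alpha partners made up most of the summed RPKM of the integrin chains. Itgb1, the common beta chain of cardiomyocytes, endothelium and fibroblasts, was at 177 RPKM with KXH and 181 with water, with a ratio of 0.977 (0.950 to 1.01) that includes 1. The 8 alpha chains listed here that pair with it summed to 253 and 257 RPKM. Among them Itga7, the muscle laminin receptor, held 47.2% of that sum with KXH and 44.4% with water.

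The abundant alpha chains differed in direction. Itga7 was at 120 against 114 RPKM, a ratio of 1.05 (1.01 to 1.09). Itga5, the fibronectin receptor chain, was at 43.0 against 37.2 RPKM and had the highest ratio of the 32 genes, 1.16 (1.09 to 1.22; 2655 and 2467 reads). Itga6, a laminin receptor chain of endothelium and other cells, was at 49.1 against 55.8 RPKM, 1.14-fold lower (1.09 to 1.18). Itga1, a collagen receptor chain of smooth muscle, fibroblasts and capillaries, was at 38.0 against 45.9 RPKM, 1.21-fold lower (1.14 to 1.28; 2113 and 2736 reads). With trimmed mean scaling the ratio of Itga1 was 0.841, just inside 1.2-fold. The higher pair and the lower pair have intervals on opposite sides of 1, and their order in the KXH library (Itga7, Itga6, Itga5, Itga1) differs from that in the water library, where Itga1 was above Itga5.

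Markers of vessel cells were lower, as were Itga6, Itga1 and Lama5. Lama4, the other alpha chain of vessel walls, was not, with a ratio of 1.02 (0.979 to 1.06). All 8 endothelial markers (Pecam1, Cdh5, Kdr, Flt1, Tie1, Tek, Egfl7 and Vwf) were lower in the KXH library with intervals below 1, by 1.07 to 1.23 times, and their summed level was 457 against 523 RPKM. Over all genes, 55.0% had a ratio below 1 and 16.3% an interval below 1. The endothelial list had a median length of 4189 bases, and 64.8% of genes of 3609 to 4692 bases had a ratio below 1. Of the 7 smooth muscle and pericyte markers kept, 6 were lower, with a median log2 ratio of -0.25 and summed levels over all 8 of 1854 against 1887 RPKM, most of it Des, which cardiomyocytes also make. Fibroblast markers lay the other way, 7 of 8 higher with a median of 0.11 and a summed level of 811 against 722 RPKM. None of these markers was at 0, and their part in the integrin values was not tested. In bulk tissue, fewer cells of a type and less RNA per cell cannot be told apart.

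Among the other beta chains, Itgb5, which binds vitronectin together with the alpha v chain, was at 33.3 against 33.7 RPKM, with a ratio of 0.989 (0.925 to 1.06) whose side of 1 turns when ratios are centred on their median. Itgb8, a beta chain that activates latent transforming growth factor beta, was at 7.44 against 9.25 RPKM, 1.24-fold lower (1.07 to 1.45). Itgb4, the laminin-binding partner of Itga6 in epithelia and Schwann cells, was at 3.35 against 4.53 RPKM, 1.35-fold lower (1.16 to 1.58; 277 and 402 reads). Itgb3, which forms the platelet fibrinogen receptor and is also made by vessel cells, was at 3.97 against 4.62 RPKM, a ratio of 0.859 (0.670 to 1.10). Itgb8 and Itgb4 thus had intervals below 1 and Itgb3 did not. Each of the 7 beta chains kept had a ratio below 1, where 60.5% of all genes of at least 2000 bases did; the smallest difference, that of Itgb5, changes side as given above, and that of Itgb1 does so once the trend with length is removed.

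Of the 6 Schwann and neural markers, 5 were lower beside Itgb4, with the interval of Mbp including 1. Sox10, a transcription factor of the Schwann lineage, had 43 reads with KXH and 107 with water, S100b 8 and 30, and Mbp 85 and 120. Ncam1, which cardiomyocytes of stressed hearts can also make, had 459 and 450. The summed level of the 6 was 17.8 RPKM with KXH and 22.7 with water, and none was at 0. Their part in the value of Itgb4 was not tested. Beside Itgb3, the 3 platelet markers kept lay on both sides of 1, with Pf4 at 0.891 (0.687 to 1.15), Gp1ba at 0.693 (0.519 to 0.923) and Gp1bb at 1.07 (0.538 to 2.14). The others had few reads: Gp9 had 4 with KXH and 2 with water, Gp5 3 and 5, and Ppbp 0 and 1. All 6 summed to 29.3 against 33.2 RPKM, and their part in the value of Itgb3 was not tested.

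At low levels the lowest ratios of the integrins were found. Itga8, an RGD-binding chain of smooth muscle and mesenchymal cells, had 64 reads with KXH and 128 with water, 0.777 and 1.45 RPKM, which is 1.86-fold lower (1.37 to 2.55). Itga11, a collagen receptor chain of fibroblasts, had 23 and 45 reads (ratio 0.549, 0.317 to 0.927), and Itga10, known from cartilage, 4 and 14 (ratio 0.307, 0.0736 to 0.977). These 3 intervals lie below 1, but few reads stand behind them. Itgb6, an epithelial chain, had 9 and 12 reads with counting limits of 0.300 and 2.08, too wide to give a direction. Of 5 epicardial and epithelial markers listed, 4 were kept and 3 of these were at least 1.2-fold higher, against 7.5% of all genes. Msln, a mesothelial protein, was at 10.3 against 7.26 RPKM (ratio 1.42, 1.19 to 1.69). Krt8 had a ratio of 1.74 (1.07 to 2.87), and Krt19 one of 1.26 (0.874 to 1.83) whose interval included 1. Wt1 was lower with an interval that included 1 (ratio 0.899, 0.763 to 1.06), and Krt18, not kept, had 6 and 10 reads. All 5 summed to 23.5 against 19.8 RPKM. None was at 0, and their part in the values of Itgb4, Itgb6 and Lamb3 was not tested.

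The leukocyte integrins were then set against the other integrin chains. Itgal, the alpha chain of the lymphocyte receptor LFA-1, had 221 reads with KXH and 220 with water, and a ratio of 1.08 (0.891 to 1.31). Itgam, the alpha chain of the myeloid receptor Mac-1, had 141 and 149 reads and a ratio of 1.02 (0.802 to 1.29). Itgb2, the beta chain of both receptors, had 198 and 294 reads, at 4.46 against 6.17 RPKM, and was 1.38-fold lower (1.15 to 1.66). Both alpha chains had intervals that include 1, that of Itgb2 lay below 1, and the difference between the chains was not tested.

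Expressed as sums, Itgal and Itgam together were at 6.51 RPKM with KXH and 6.20 with water. Itgad, a further partner of Itgb2 on macrophages that is counted here with the other integrin chains, had 42 and 78 reads. It was 1.73-fold lower (1.17 to 2.58). The RefSeq table lists Itgax as another name of Itgad, so the row may not separate these related genes. With Itgad added, the alpha sum was 7.35 against 7.65 RPKM.

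The median log2 ratio was 0.02 over the 3 leukocyte chains and -0.18 over the 14 other integrin chains kept, a difference of 0.20. It was 0.09 with the genes that are not chains counted among the others, whose median was then -0.07. The difference rests on 3 genes whose own log2 ratios run from -0.39 to 0.09, and of these Itgb2 alone had an interval away from 1. Itgad, the further partner of Itgb2 counted with the others, was at -0.41, below all 3. Counting Itgad alone with the leukocyte chains was not done, and it would lower both their median and the difference. The mean differs in sign from the median for the leukocyte chains, at -0.10, and the difference of means is 0.05. Where an average of 5 RPKM is required the leukocyte group is reduced to Itgb2, and the difference becomes -0.36. Itgb2 meets that requirement only through the water library, so its direction there was set in part by the requirement.

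Chains of lymphocyte homing receptors, counted here with the others, did not follow one direction either. Itga4, which binds Vcam1, had 120 reads with KXH and 118 with water (ratio 1.09, 0.840 to 1.42), and Itgae, the alpha chain of tissue-resident T cells, 110 and 103 (ratio 1.15, 0.869 to 1.52). Their common partner Itgb7 had 36 and 64 reads and was 1.66-fold lower (1.08 to 2.56). The interval of Itgb7 lay below 1 and overlapped those of Itga4 and Itgae. Itga4 also pairs with Itgb1.

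Leukocyte markers differed by list beside these chains. The 8 pan-leukocyte markers had a median log2 ratio of 0.01, with 4 higher and 4 lower and a summed level of 156 against 148 RPKM. Ptprc, the common leukocyte antigen CD45, was 1.28-fold lower (1.12 to 1.47), whereas Arhgdib was 1.29-fold higher (1.15 to 1.44). For the 11 markers of macrophages and monocytes, the list had a median of 0.03 and a summed level of 346 against 356 RPKM, with Cd68 lowest. None of these 19 markers was at 0. The 9 lymphocyte markers listed summed to 5.48 against 7.61 RPKM. Of the 3 kept, Nkg7 of cytotoxic cells (13 and 38 reads) and Cd2 (17 and 21) were lower and Klrd1 (47 and 39) was higher. The intervals of Cd2 and Klrd1 included 1. Most of the gap in the sum was Nkg7, at 1.16 against 3.15 RPKM. The 5 neutrophil markers listed summed to 3.03 against 6.13 RPKM. Both kept were lower, where 55.0% of all genes were: S100a8 with 6 and 20 reads and S100a9 with 7 and 12. The interval of S100a9 (0.209 to 1.73) included 1. Of those not kept, Csf3r had 16 and 23 reads, Camp 3 and 2, and Elane 1 and 1. Cd3g had 1 read with KXH and 0 with water. The part of these lists in the values of Itgb2, Itgad and Itgb7 was not tested.

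**Figure D4:**
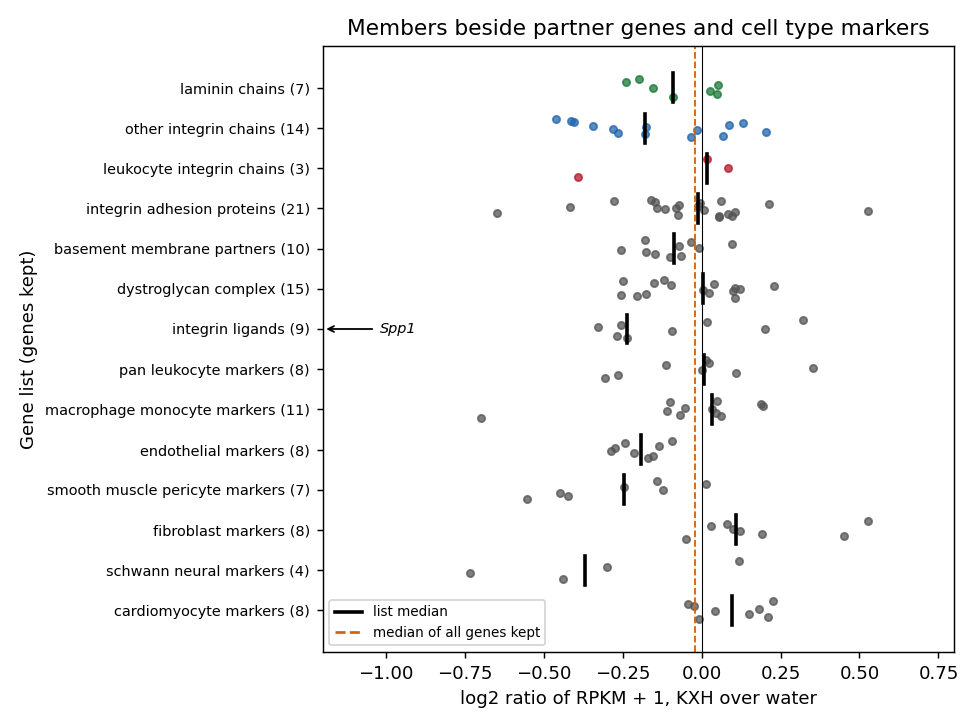
The log2 ratio of RPKM + 1, KXH over water, of each gene averaging 1 RPKM or more, by list, with the list median as a black bar and the median of all genes as a dashed line; each point is a gene, and Spp1 lies beyond the left edge. Leukocyte chains straddle 0 with a median of 0.02, whereas the other integrin chains have a median of -0.18 and the endothelial markers one of -0.19.

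Genes with an integrin name that encode no chain were also close to the water level. Itgb1bp2, melusin, a muscle protein that binds the tail of Itgb1 and protects the heart under pressure load, was at 115 RPKM with KXH and 106 with water, a ratio of 1.08 (1.02 to 1.15; 2072 and 2058 reads). Itgb1bp1, which binds the same tail and restrains activation, had a ratio of 0.949 (0.822 to 1.10), and Itgbl1, a secreted protein with beta-chain-like repeats, one of 1.04 (0.918 to 1.17). Itgb3bp, a centromere protein, had 8 and 9 reads. Of the 4, melusin alone had an interval away from 1, where 27.4% of all genes did.

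Gene length was examined as a control, because long genes had lower ratios in these tables. Over the 10 classes of length the median log2 ratio was 0.04 for the shortest genes and -0.06 for the longest, 70.4% of which were below the water level, and 29 of the 32 genes are longer than the median of 2137 bases. Measured from the median of its own length class, the laminin list had a median of -0.03, the other integrin chains one of -0.14 and the leukocyte chains one of 0.04. These stand beside unadjusted medians of -0.09, -0.18 and 0.02. Among all genes of at least 2000 bases, 11.1% were at least 1.2-fold lower and 4.73% at least 1.2-fold higher. Itga5 was 0.25 above and Itga8 0.40 below the median of its class, given as differences of log2 ratios.

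**Figure D5:**
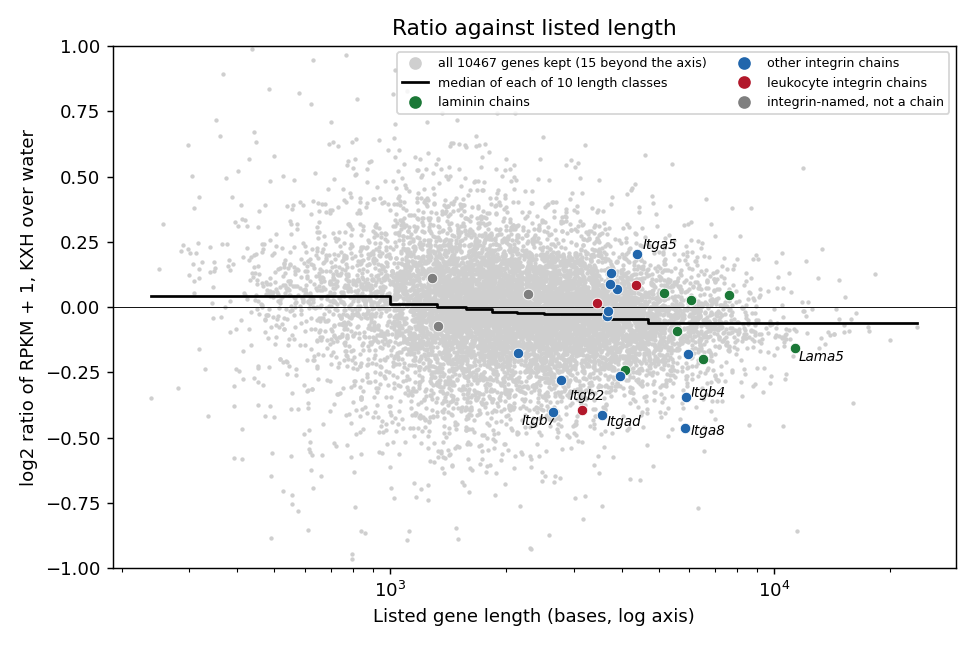
The log2 ratio of RPKM + 1, KXH over water, against listed gene length in bases on a log axis, with all 10467 genes kept in grey and the median of each of 10 length classes as a black line. The line descends from 0.04 to -0.06, Lama5 lies near it, and Itga8, Itgad, Itgb7, Itgb2 and Itgb4 lie well below it.

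Genes that work with integrins and laminins were followed as lists. Of 21 adhesion proteins inside the cell, 3 were at least 1.2-fold lower and 1 at least 1.2-fold higher, near the 12.1% and 7.5% of all genes, with a median log2 ratio of -0.01. The higher one was Lims2, an adaptor in the integrin-linked kinase complex, at 142 RPKM with KXH and 98.4 with water, a ratio of 1.45 (1.38 to 1.52). Other members of that complex lay on both sides of 1: Ilk had a ratio of 1.04 (0.976 to 1.11), Lims1 one of 1.08 (0.991 to 1.17), Parvb one of 1.06 (1.00 to 1.12), Parva one of 0.948 (0.831 to 1.08) and Rsu1 one of 0.886 (0.742 to 1.06). Vcl and Tln1, which link integrins to actin, had ratios of 1.07 (1.04 to 1.10) and 1.04 (1.01 to 1.07). The lower ones were Actn1, the kinase Src, 1.42-fold lower (1.12 to 1.80), and Parvg, the parvin of blood cells and a further partner of Ilk, 2.07-fold lower (1.41 to 3.09; 40 and 89 reads).

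Partners of laminin in the basement membrane had a median log2 ratio of -0.09, and one of -0.03 measured from their length classes. Of 10 kept, 9 were lower, against 60.5% of all genes of at least 2000 bases and 70.4% of the longest class, and 1 was at least 1.2-fold lower, against 12.1% of all genes. That gene was Agrn, the proteoglycan agrin, at 22.6 against 27.1 RPKM, a ratio of 0.831 (0.787 to 0.878). The laminin receptor Bcam was 1.13-fold lower (ratio 0.882, 0.837 to 0.930) and collagen IV chain Col4a1 1.05-fold lower (1.02 to 1.07), while for Col4a4 the interval of 0.712 to 1.08 included 1.

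In the dystroglycan complex, another laminin receptor, ratios lay on both sides. Of 15 genes, 8 were higher and 7 lower, 1 of them by at least 1.2-fold, with a median of 0.01. Dag1 itself was at 94.8 against 88.0 RPKM, a ratio of 1.08 (1.04 to 1.11), close to that of Itga7. Utrn, the dystrophin relative also made in vessels, had a ratio of 0.835 (0.808 to 0.862), and Pomt1, which begins the sugar chain that binds laminin, was 1.24-fold lower (1.00 to 1.53).

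Of 9 other integrin ligands kept, 4 were at least 1.2-fold lower, namely Spp1, Vcam1, Icam1 and Vtn, and 1 was at least 1.2-fold higher, against 12.1% and 7.5% of all genes. Spp1, osteopontin, a ligand of several integrins, had 86 reads with KXH and 705 with water, a ratio of 0.131 (0.104 to 0.164). Vcam1, the endothelial ligand of Itga4, was at 6.04 against 7.82 RPKM, a ratio of 0.772 (0.654 to 0.909). Thbs1, a matricellular ligand, was at 18.2 against 14.4 RPKM, a ratio of 1.27 (1.15 to 1.39). Fibronectin (Fn1), the ligand of Itga5, was at 21.7 against 25.7 RPKM, a ratio of 0.844 (0.801 to 0.889), so receptor chain and ligand lay on opposite sides of 1.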

How the data were processed

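Per the labels' protocols, RNA of frozen myocardium was taken up in Trizol and sequenced after an Illumina TruSeq preparation. The deposited protein-coding tables give a whole count of unique reads, a coverage percentage and RPKM per gene, per the file headers. The deposited RPKM equals the count per kilobase per 1000000 reads of the table, within a relative difference of 1e-09. Some deposited coverage values exceed 100%. Bowtie 0.12.2 and the rn6 build are named by the submitters' processing notes, with no role. The sources used here do not name a counting program, annotation, strand setting or filter, so antisense reads cannot be told apart and unique counting can lose reads of related genes.

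Ratios were formed on RPKM, list medians on log2 of RPKM + 1 over the 10467 genes averaging 1 RPKM or more. Exact 95% Clopper-Pearson limits were set on the KXH library's part of a gene's reads; they cover counting error only, and reads lacking molecular identifiers can be copies of 1 molecule. Calls use a fold of 1.2. Trimmed mean scaling dropped 30% of ratios and 5% of levels at each end; the length trend was quadratic in log2 length. The rule names every integrin and laminin gene, and of each partner list the 3 farthest from 0 plus Dag1, Ilk, Tln1, Vcl, Col4a1 and Nid1; a few of these are not reported here, and Parva, Parvb, Rsu1, Lims1, Actn1, Icam1, Vtn and Fn1 were chosen after their values were seen. Genes and lists were chosen with earlier results of these data known. The steps were tested on simulated data. The lncRNA tables were not used. Software was Python 3.11.15 with scipy 1.17.1, pandas 2.3.3, numpy 2.4.6 and matplotlib 3.10.9.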

Additional observations from a re-analysis of the deposited data

How the results depend on the processing

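The choice of low-level filter had the largest effect. When an average of 5 RPKM was required, the laminin median log2 ratio turned to 0.027 in place of the -0.09 reported, because Lamb3 and Lamc3 drop out. The median of the other integrin chains became -0.03, the leukocyte median -0.39 and the difference from the other chains -0.36, since Itgb2 alone is left. Itgb2 itself passes that limit only through the water library. With this filter 3 genes, Itgb2 among them, were at least 1.2-fold lower in place of 9. At a fold of 1.5 also 3 were lower. Counting the genes that are not chains with the other integrins took that group's median to -0.07 from the -0.18 reported and the difference to 0.09, and list means took the difference to 0.05 and the leukocyte value to -0.10, a change of sign. The other pseudocount (0.1 RPKM), no filter, median centring, trimmed mean scaling and the removed length trend kept the sign of all 3 medians and of the difference, though the length trend took the laminin median to -0.04 and the leukocyte median to 0.06. These 5 left 8 to 13 genes at least 1.2-fold lower and none at least 1.2-fold higher. Counting Itgad, Itgae, Itgb7 and Itga4 as leukocyte integrins left the medians as reported. Their log2 ratios run from -0.41 to 0.13, with 2 higher and 2 lower, so Itgam stays the middle gene. The unchanged median therefore does not show that these genes lie close together. Itgad, a partner of Itgb2, was not moved alone. At -0.41 it lies below all 3 leukocyte chains, so moving it alone would lower the leukocyte median and the difference. Removing the length trend moved Itgb1, Lamb2 and Lamc1 out of their counting intervals, to ratios of 1.01, 0.974 and 1.08. No paired analysis was possible because each group has 1 library. The chief limit is that missing replication: counting intervals understate the error of every ratio, and genes under 100 reads give wide ones.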
